A study of Mus musculus with 6 samples.

Results

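Glutathione-conjugating and antioxidant enzymes were examined in cultured mouse muscle stem cells (MuSCs), the Pax7-expressing cells that regenerate skeletal muscle. Members were chosen by gene symbol: the glutathione transferases (Gsta, Gstm, Gstp, Gstt, Gsto, Gstk, Gstz and Mgst), the glutathione peroxidases (Gpx), peroxiredoxins (Prdx), superoxide dismutases (Sod) and thioredoxin reductases (Txnrd), and Gclc, Gclm, Gss, Gsr, Cat, Nqo1, Hmox1, Srxn1 and Nfe2l2. The rule found 50 of 18943 genes, of which 48 are protein coding and 2, Gpx4-ps2 and Prdx2-ps1, are pseudogenes. The family itself was picked with earlier results of the same libraries known, namely their differences between ligand and DMSO. Counts, fold changes and adjusted p-values of the members against DMSO are therefore given as descriptions, and the members' share of calls supports nothing about the family.

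MuSCs were purified by FACS from wild-type C57BL/6 mice aged 8 weeks and cultured for 5 days with DMSO, the solvent control, with the peptide endothelin-3 (ET-3) or with the peptide neurotensin (NT), which act on G protein-coupled receptors. There were 2 RNA-seq libraries per group, 6 in all, and nothing in the labels says that the 2 libraries of a group came from separate mice or cultures, so p-values measure only the spread between these libraries. The labels give 100 nM for both ligands whereas the methods give doses in the micromolar range, and the series text speaks of triplicates, of which 2 per group were analysed here.

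Glutathione is a tripeptide thiol that cells use to detoxify electrophiles and peroxides. Glutamate-cysteine ligase (Gclc, the catalytic subunit, and Gclm, the modifier) carries out the rate-limiting step of its synthesis, transferases attach it to electrophiles, peroxidases spend it on peroxides, and glutathione reductase (Gsr) recycles it with NADPH. A parallel system of thioredoxin, thioredoxin reductases and peroxiredoxins reduces hydrogen peroxide. Many of these genes are targets of NRF2, the product of Nfe2l2, which KEAP1 holds in check through degradation of the protein and which binds antioxidant response elements with a TGACNNNGC core.

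The core was searched in the promoters of the members, because these sequences are the candidate binding sites of the factor that the family is known for. RefSeq promoters of build GRCm38.p6, from 250 bases before to 50 bases after a start site, were matched by symbol for 41 members with 53 windows. The enzymes Gclc, Gsr, Gsta4, Gstt2, Hmox1, Prdx6 and Sod3 and both pseudogenes had no entry. TGACNNNGC occurred on either strand in 10 of the 41 members (24.4%), in 10 of their 53 windows, and in 14.0% of 27025 genes, or 12.4% of 32851 windows. With an A or G required before the core, 3 of 41 members (7.32%) and 7.20% of genes held it. A match is a description of the letters and not a binding site. The matches are shown 5′ to 3′ on the strand of the gene with 10 bases on either side and the core in capitals, which appears as its reverse complement where the match lies on the opposite strand.
Gclm, chr3:122245413-122245441, plus strand: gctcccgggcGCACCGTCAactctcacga
Mgst1, chr6:138140461-138140489, plus strand: gcggggcttgGCACGGTCAggaggcgggg
Txnrd1, chr10:82859104-82859132, plus strand: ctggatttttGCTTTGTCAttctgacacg
Srxn1, chr2:152105542-152105570, plus strand: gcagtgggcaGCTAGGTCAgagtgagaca
Gsta3, chr1:21240454-21240482, plus strand: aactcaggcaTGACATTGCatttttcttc
Prdx1, chr4:116685456-116685484, plus strand: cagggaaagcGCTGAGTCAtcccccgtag
Sod1, chr16:90220696-90220724, plus strand: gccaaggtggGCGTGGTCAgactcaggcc
Nfe2l2, chr2:75704885-75704913, minus strand: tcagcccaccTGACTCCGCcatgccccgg
Gstm5, chr3:107895802-107895830, plus strand: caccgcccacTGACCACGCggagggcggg
Gstm7, chr3:107931725-107931753, minus strand: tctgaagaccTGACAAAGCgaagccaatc
The first 5 of these genes had higher values in all 4 treated libraries than in both DMSO libraries. Gstm5 and Gstm7 had lower values in all 4, so matches were found in members of either direction. Values of Prdx1, Sod1 and Nfe2l2 overlapped with those of DMSO. Of the 47 members tested below, which leave out Gstm7, 21 lay above in this way and 9 below. Among all tested genes the shares were 33.2% and 36.4%. Whether a match goes with a direction was not tested. The core of Prdx1 overlapped an AP-1 motif, TGACTCA or TGAGTCA, and the other 9 did not. In Srxn1 the core began 29 bases after the start site, and in the other members it began 42 to 240 bases before it.

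The Gclm promoter is printed in full up to the start site because Gclm had both a match and a change with a small standard error below. It lies at chr3:122245307-122245556 on the plus strand of GRCm38.p6, and the core in capitals begins 134 bases before the start site.
Gclm upstream: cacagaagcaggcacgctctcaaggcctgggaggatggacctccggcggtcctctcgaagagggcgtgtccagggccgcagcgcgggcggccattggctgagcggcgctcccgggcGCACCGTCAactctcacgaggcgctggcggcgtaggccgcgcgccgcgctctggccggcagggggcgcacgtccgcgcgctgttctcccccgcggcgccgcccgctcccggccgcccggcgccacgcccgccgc

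The deposited values are read counts that the authors multiplied by 1 factor per library and rounded, and they are called values below. They summed to between 4214458 and 4600575 per library, which corresponds to 3628952 to 5396233 reads on genes, and a value of 100 carried a counting error of 8.84% to 10.9%. The markers Pax7, Myf5, Myod1 and Des were present in every library, with Pax7 at 857 and 1070 in the DMSO libraries and 1599 to 1754 in the treated ones, whereas Calcr, a marker of quiescent MuSCs, stood at 0 to 3. Myog, a marker of differentiation, stood at 1157 and 1335 (DMSO) and at 28 to 38 with either ligand. Its difference moved with every difference against DMSO below, and in bulk samples fewer cells of a kind cannot be told apart from less RNA per cell. Of the markers of other cells, 4 of 5 endothelial genes were listed, with a summed value of 12 to 24 in the DMSO libraries, 96 to 104 (ET-3) and 85 to 107 (NT). Tek led that list in the treated libraries (2 and 1 with DMSO, 42 to 70 in treated libraries). Kdr (16 and 6 against 23 to 26) and Pecam1 (6 and 3 against 7 to 15) were also higher in all treated libraries. Cdh5 stood at 0 to 5 and Emcn was not listed. All 5 smooth muscle and pericyte markers were listed, and their sum was 2174 to 2423 (DMSO), 721 to 786 (ET-3) and 776 to 796 (NT), with Myh11 at 0 to 4. The sum hides unlike changes. Pdgfrb (227 and 278 with DMSO, 3 to 13 in treated libraries) and Rgs5 (117 and 150 against 2 to 5) nearly vanished. Acta2 (1216 and 1382 against 251 to 281) and Cspg4 (610 and 612 against 433 to 509) were lower by less. For 4 of 6 fibroadipogenic markers the sum was 204 to 211, 70 to 77 and 90 to 97, but they went different ways. Col1a1 (148 and 146 with DMSO, 2 to 8 in treated libraries) and Dcn were lower. Ly6a was higher (27 and 18 against 37 to 52), and Pdgfra overlapped. For 3 of 6 macrophage markers the sum was 25 to 32, 55 to 77 and 51 to 60, with Cd14 and Cd68 higher and Csf1r lower in all treated libraries. For 3 of 5 Schwann cell markers it was 67, 32 to 44 and 55 to 69. Ptprc, Adgre1, Lyz2, Sox10 and all 7 erythroid markers were not in the table. The part that these cells had in the results was not tested.

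Values were compared as log2(value + 1) with limma over the 13921 genes whose mean value reached 5, with Benjamini-Hochberg adjustment over those genes in each comparison. Rose and fell are used for an adjusted p of at most 0.05, and upregulated and downregulated for genes that also changed at least 2-fold. Of the 50 members 47 were tested, and Gstm7, Gstp3 and Gstt3 lay under the mean of 5. Under ET-3, 26 members rose and 9 fell, and under NT 20 rose and 10 fell. Among all tested genes, 30.6% rose and 33.2% fell under ET-3, and 29.7% rose and 32.5% fell under NT. Upregulated members numbered 11 under ET-3 and 10 under NT, where the share of all tested genes was 6.62% and 7.3%. Downregulated members numbered 2 and 3, where the share of all tested genes was 14.9% and 13.2%. The median log2 fold change of the 47 was 0.28 under ET-3 and 0.06 under NT, with -0.01 for all tested genes in both comparisons. Gsta1, Gsta2 and Gsta3, at 0 in both DMSO libraries, also lay above these medians with folds taken from the limit given below. Setting them to those folds therefore could not move the medians.

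Both comparisons use the same DMSO libraries, so their values are set side by side and not counted as repeats of each other. Upregulated under both ligands were 9 members, namely Gsta1, Gsta2, Gsta3, Gsta4, Mgst1, Mgst2, Nqo1, Srxn1 and Gclm, and Gpx7 was downregulated under both. In 21 of the 47 members all 4 treated libraries lay above both DMSO libraries, as in 33.2% of all tested genes, and in 9 all 4 lay below, as in 36.4%. When library totals set the scale, the median of all tested genes moved to 0.08 for ET-3 and 0.10 for NT. Upregulated members then numbered 13 (ET-3) and 10 (NT), beside 7.87% and 8.95% of all genes tested on that scale. Downregulated ones numbered 1 (ET-3) and 0 (NT, where limma called 1 at an unadjusted p under 0.05), beside 13.5% and 11.9%. At the adjusted p alone this scaling gave 27 members higher and 5 lower under ET-3, beside 36.8% and 29.3% of all genes tested. For NT it gave 25 higher and 6 lower, beside 37.3% and 26.6%.

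**Figure D1:**
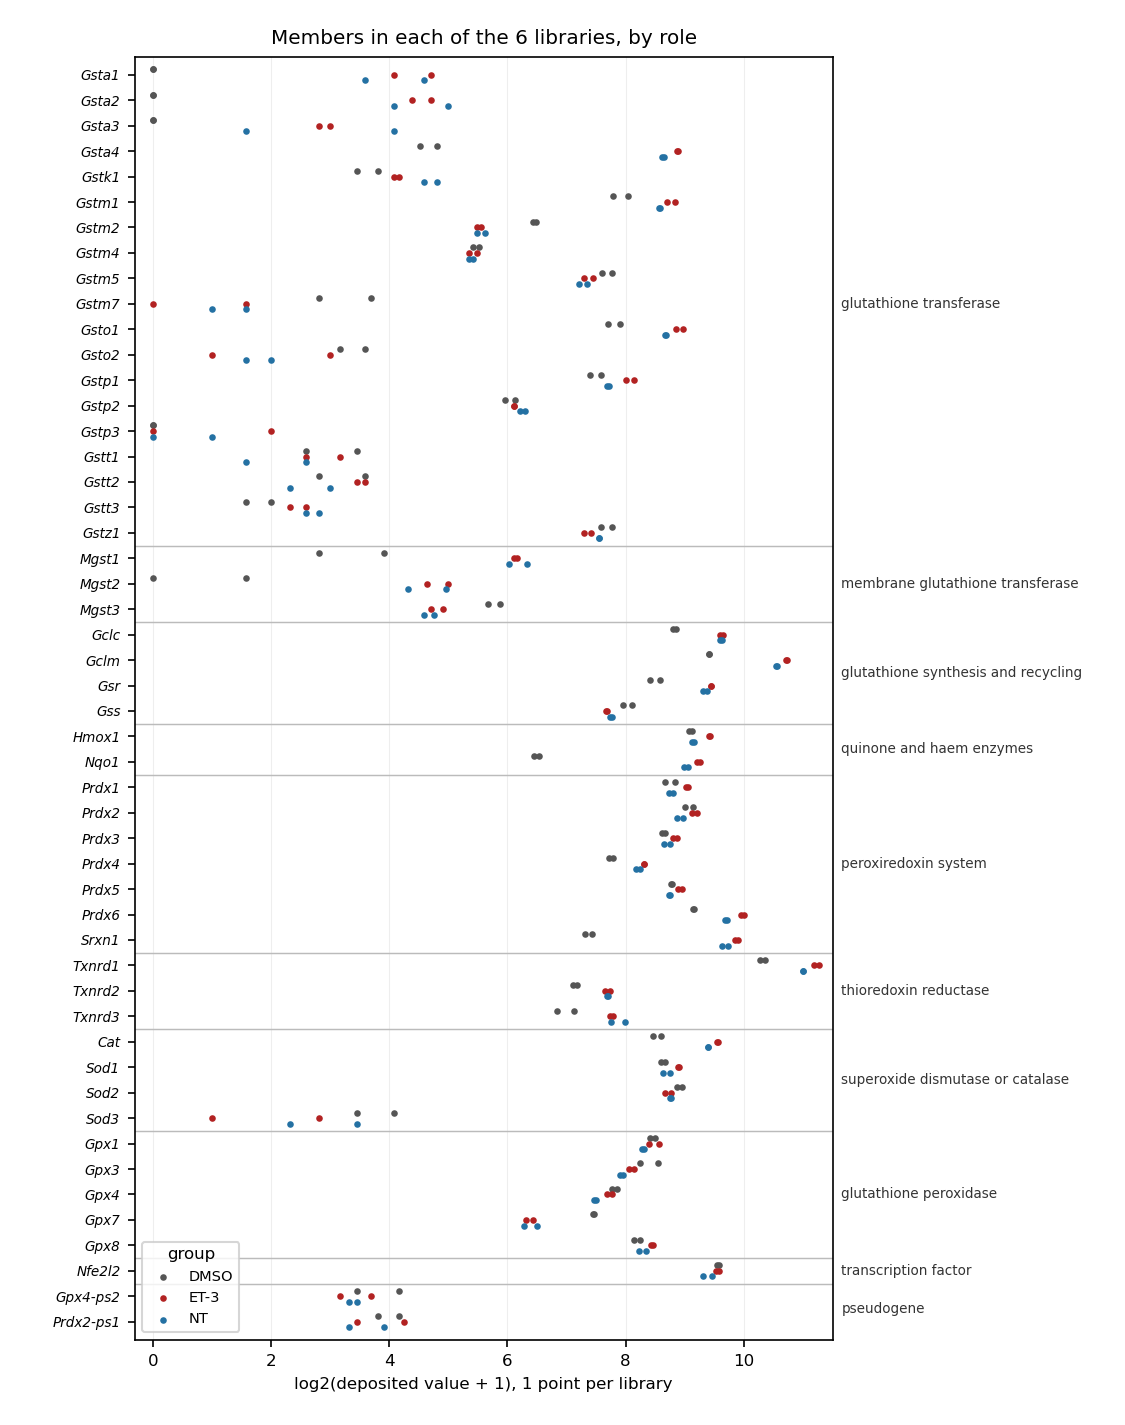
Value of each of the 50 members in each of the 6 libraries, as log2(deposited value + 1) on the horizontal axis, with 1 point per library (DMSO grey, ET-3 red, NT blue) and members grouped by role. Gsta4, Nqo1, Srxn1, Mgst1 and Mgst2 show wide gaps between DMSO and treated libraries, whereas most peroxiredoxins, superoxide dismutases and glutathione peroxidases lie close together.

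The alpha class of glutathione transferases, which act on products of lipid peroxidation among other electrophiles, had higher values in all 4 treated libraries than in either DMSO library. Gsta4, whose enzyme conjugates 4-hydroxynonenal, stood at 22 and 27 in the DMSO libraries, 465 and 474 (ET-3) and 392 and 399 (NT). The groups did not overlap, and the fold change was 18.5 for ET-3 and 15.6 for NT (log2 fold change 4.21 ± 0.10 (SE) and 3.97 ± 0.10, adjusted p 1.83e-09 and 2.99e-09). Of the 75-base windows along the exons of Gsta4, 0% occur in another annotated gene.

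Gsta1, Gsta2 and Gsta3 were at 0 in both DMSO libraries. Gsta1 reached 25 and 16 (ET-3) and 11 and 23 (NT). The sums of these pairs were 13.7 and 11.3 times 3, the limit taken for a count of 0 in both DMSO libraries. The limit was not multiplied by the library factors and the sums carry counting error, so these ratios are not strict lower bounds. Gsta2 reached 20 and 25 (ET-3) and 16 and 31 (NT), with sums 15.0 and 15.7 times that limit. Both are low values, and the copies resemble each other: 84.7% of the 75-base windows of Gsta1 and 36.6% of those of Gsta2 occur in other annotated genes, Gm3776 and each other among them. Because reads that aligned to several regions were left out by the authors, the division between Gsta1 and Gsta2 is uncertain. Gsta3 was lower still, at 6 and 7 (ET-3) and 2 and 16 (NT), with sums 4.33 and 6.00 times the limit. Its adjusted p was 0.00512 and 0.00608, and without either DMSO library it was 0.0991 or 0.0998 under ET-3 and 0.106 or 0.109 under NT. Without the second NT library it was 0.0549 under NT, and without the first or second ET-3 library 0.0525 and 0.0621 under ET-3. Gsta1, Gsta2 and Gsta4 lie within 173.0 kb of each other (chr9:78182774-78355788 in GRCm38), and Gsta3 lies on chromosome 1.

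The mu class did not move as a group, although its 5 members sit in 149.1 kb at chr3:107895821-108044894. Gstm1 had values of 221 and 261 (DMSO), 456 and 416 (ET-3) and 377 and 381 (NT). It rose by 0.86 ± 0.08 (ET-3) and 0.66 ± 0.08 (NT) on the log2 scale (adjusted p 1.03e-05 and 7.21e-05). Gstm2 went the other way, with 89 and 85 in the DMSO libraries, 44 and 46 (ET-3) and 44 and 48 (NT), and it fell by 0.94 and 0.91 on the log2 scale (SE 0.16 each). Gstm5 fell from 194 and 218 to 173 and 157 (ET-3) and 161 and 148 (NT), with log2 fold changes of -0.32 and -0.41, the first of which missed the threshold when libraries were scaled to their totals (adjusted p 0.0584). Gstm4 held values of 40 to 45 in every library. Gstm7, too low for the test, stood at 12 and 6 (DMSO), 0 and 2 (ET-3) and 2 and 1 (NT). Neighbouring mu genes thus showed opposite directions, and the rise of Gstm1 and the fall of Gstm2 passed the test under every scaling tried, although Gstm1 missed the threshold with each treated pair as 1 sample (adjusted p 0.063 for ET-3 and 0.0898 for NT).

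No tested gene of the pi class changed 2-fold. Gstp1 stood at 168 and 191 (DMSO), 280 and 257 (ET-3) and 209 and 205 (NT), and rose under ET-3 (log2 fold change 0.58 ± 0.09, adjusted p 0.000221). Under NT its log2 fold change was 0.21 with an adjusted p of 0.0609, which became 0.00744 with libraries scaled to their totals and 0.0479 with their upper quartiles. Gstp2 had values of 61 to 78 over all libraries and Gstp3 0 to 3, at or under the limit for a fold. Since 29.2% of the windows of Gstp1 and 50.1% of those of Gstp2 are shared with other genes, mainly with each other, their division is also uncertain.

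In the omega class, Gsto1 went up and its neighbour Gsto2 was at the lower edge of measurement. Gsto1, a glutathione-dependent reductase, stood at 239 and 207 (DMSO), 498 and 463 (ET-3) and 406 and 408 (NT). It was upregulated under ET-3 (2.15-fold, adjusted p 8.65e-07) and rose under NT by 1.83-fold (adjusted p 5.12e-06), so only the 2-fold threshold separates the calls. Gsto2 had values of 8 and 11 (DMSO), 1 and 7 (ET-3) and 3 and 2 (NT). Its log2 fold change was -1.38 ± 0.62 for ET-3 (adjusted p 0.0757) and -1.58 ± 0.62 for NT (adjusted p 0.0468). The latter call did not hold without any 1 of the 4 libraries compared, with adjusted p between 0.125 and 0.278, while the former passed without the second ET-3 library (adjusted p 0.00707).

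Of the remaining soluble transferases, Gstk1, the mitochondrial and peroxisomal kappa form, stood at 13 and 10 (DMSO), 17 and 16 (ET-3) and 27 and 23 (NT). It was upregulated under NT (log2 fold change 1.06 ± 0.29, adjusted p 0.00878), not so without the first NT library (adjusted p 0.0633), and its log2 fold change of 0.50 under ET-3 did not pass the test (adjusted p 0.158). The difference between the ligands, 0.57 ± 0.29, did not pass either (adjusted p 0.309). Gstz1, an enzyme of tyrosine breakdown, fell under ET-3 from 218 and 191 to 170 and 157 (log2 fold change -0.32), with an adjusted p of 0.0121 that became 0.0509 under scaling to totals, and stood at 187 and 186 (NT). The theta genes Gstt1, Gstt2 and Gstt3 had values of 2 to 11 in every library, and neither Gstt1 nor Gstt2 passed the test.

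Summed per kb of exonic length, the soluble transferases stood at 748 and 795 in the DMSO libraries, 1449 and 1384 (ET-3) and 1234 and 1257 (NT). Alpha genes made up 2.32% and 2.68% of that sum (DMSO), 28.4% and 29.9% (ET-3) and 27.2% and 29.4% (NT), and Gsta4 alone made up 25.3% and 27.1% with ET-3 and 25.1% in both NT libraries. The mu share was 52.0% and 53.7% with DMSO and 33.0% to 35.1% in the treated libraries, although the summed mu level per kb, 389 and 427 (DMSO), was 428 to 497 in them. The share of the mu class thus went down with no fall in its level. In the plot of transferase classes per library, the alpha segment is the one that separates the treated bars from the DMSO bars most.

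**Figure D2:**
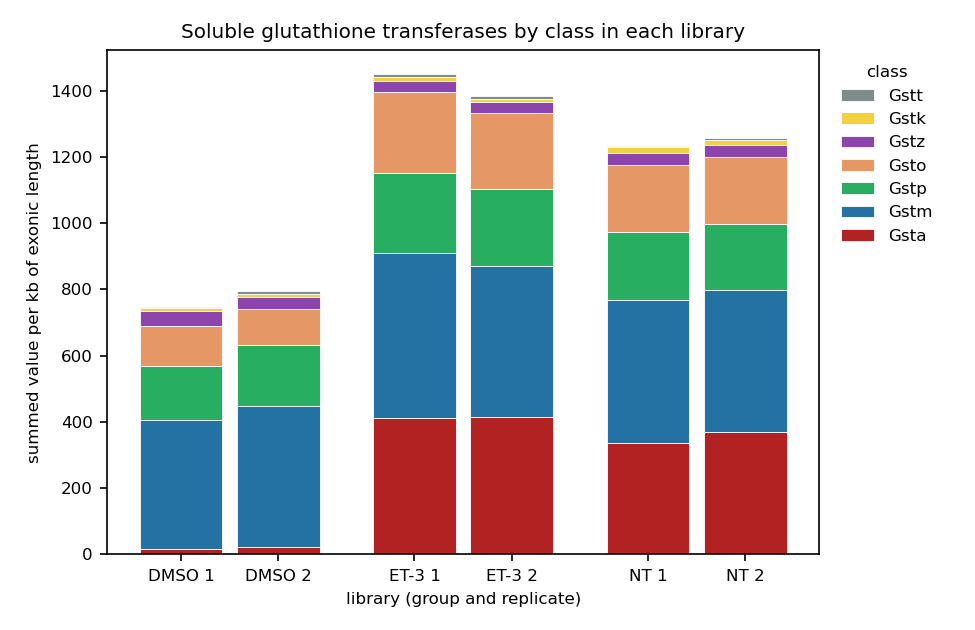
Stacked bars of the summed value per kb of exonic length (vertical axis) for the 7 classes of soluble glutathione transferases in each of the 6 libraries. The alpha segment (Gsta, red) is 17.4 and 21.3 (DMSO) and 335 to 414 in the treated libraries, and the mu segment (Gstm, blue) is 389 and 427 against 428 to 497.

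The 3 membrane transferases, which sit in microsomal and mitochondrial membranes, divided. Mgst1 stood at 6 and 14 (DMSO), 71 and 68 (ET-3) and 64 and 80 (NT), a log2 fold change of 2.78 ± 0.33 and 2.82 ± 0.33 (adjusted p 3.99e-05 and 3.8e-05). Mgst2 stood at 2 and 0, 24 and 31, and 19 and 30. With 2 reads over the DMSO libraries, its ratio was 25.8 for ET-3 (95% exact interval 6.78 to 219.6) and 23.1 for NT (6.13 to 195.5), intervals that cover counting error only. Mgst3 moved the opposite way, from 50 and 58 (DMSO) to 29 and 25 (ET-3) and 23 and 26 (NT). Its log2 fold change came to -0.97 ± 0.22 for ET-3 and to -1.11 ± 0.22 for NT (adjusted p 0.00322 and 0.00155), so it was downregulated under NT and fell short of 2-fold under ET-3. The call under NT rested on the setting, as the log2 fold change was just under 2-fold with scaling to totals (-0.997) or a pseudocount of 5 (-0.999), and the adjusted p was 0.0588 with each treated pair as 1 sample. Under ET-3 it passed 2-fold without the first DMSO library (-1.08) or the first ET-3 library (-1.08).

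Both subunits of glutamate-cysteine ligase were higher in all 4 treated libraries. Gclm, which raises the efficiency of the enzyme, stood at 682 and 676 (DMSO), 1689 and 1675 (ET-3) and 1507 and 1496 (NT). The libraries of a group lay close together and the groups did not overlap, and the fold change was 2.48 for ET-3 and 2.21 for NT (adjusted p 4.24e-09 and 1.02e-08). Gclc, the catalytic subunit, went from 461 and 445 to 804 and 775 (ET-3) and 773 and 788 (NT), by 1.74-fold and 1.72-fold. Gsr, which recycles oxidized glutathione, went from 339 and 380 to 697 and 699 (ET-3) and 663 and 631 (NT), by 1.94-fold and 1.80-fold. All 3 rose under both ligands (adjusted p of Gclc 3.29e-07 and 4.07e-07, of Gsr 5.64e-07 and 1.44e-06). Glutathione synthetase (Gss), the enzyme of the second step, did not follow them: it stood at 274 and 247 (DMSO), 205 and 202 (ET-3) and 211 and 218 (NT). Gss fell by 0.35 ± 0.08 on the log2 scale for ET-3 and by 0.28 ± 0.08 for NT (adjusted p 0.00262 and 0.0104), the latter not with scaling to totals (adjusted p 0.0955). Exons of Gss share sequence with the annotated genes Gssos1, Gssos2 and Acss2, with 7.76% of its windows shared on either strand. According to the methods, reads that fell on more than 1 gene were left out. Whether this removed reads of Gss is not known, as the use of strand in counting is not given.

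The 2 stress enzymes Nqo1 and Hmox1, both textbook NRF2 targets, differed widely in their change. Nqo1, a quinone reductase (chr8:107388225-107403206 in GRCm38), stood at 86 and 92 (DMSO), 591 and 612 (ET-3) and 532 and 507 (NT). Its fold change came to 6.70 for ET-3 and to 5.79 for NT (adjusted p 1.71e-09 and 2.89e-09). Hmox1, which breaks down haem and is also repressed by BACH1, was at 538 and 558 (DMSO), 684 and 677 (ET-3) and 569 and 558 (NT). It rose 1.24-fold under ET-3 (log2 fold change 0.31 ± 0.05, adjusted p 0.000244), and under NT its log2 fold change was 0.04 with an adjusted p of 0.484, which scaling to totals turned to 0.15 with an adjusted p of 0.0139. Hmox1 had the highest level per kb of all members with DMSO, 313, as against 57.3 for Nqo1, and with ET-3 the pair stood at 389 and 387. Whether a gene as densely covered as Hmox1 gives fold changes on the same scale as others was not tested.

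Among the peroxiredoxins, thiol peroxidases that remove hydrogen peroxide, changes stayed under 2-fold, in contrast to their repair enzyme. Srxn1 encodes sulfiredoxin, which restores over-oxidized peroxiredoxins, and stood at 171 and 158 (DMSO), 953 and 917 (ET-3) and 790 and 853 (NT). Its fold change came to 5.66 for ET-3 and to 4.97 for NT (log2 fold change 2.50 ± 0.06 and 2.31 ± 0.06). Prdx6, the 1-Cys peroxiredoxin that uses glutathione, was at 564 and 567, 1028 and 991, and 843 and 822, and rose by 0.84 ± 0.04 and 0.56 ± 0.04 on the log2 scale. Prdx4, the form of the endoplasmic reticulum, rose from 220 and 210 to 316 and 317 (ET-3) and 302 and 287 (NT). The cytosolic Prdx1 and the mitochondrial Prdx3 and Prdx5 rose under ET-3, with log2 fold changes of 0.28, 0.19 and 0.15, and had 0.02, 0.06 and -0.03 under NT. Their difference between the ligands did not pass the test (adjusted p 0.0567, 0.261 and 0.104). Prdx3, high per kb, had values of 391 and 407 (DMSO), 469 and 444 (ET-3) and 432 and 401 (NT), and its call under ET-3 was lost without the first (adjusted p 0.115) or second DMSO library (adjusted p 0.0582) and without the first ET-3 library (adjusted p 0.124). Under NT it passed with scaling to totals (0.17, adjusted p 0.0228). Prdx2 had log2 fold changes of 0.10 and -0.15 that did not pass the test, though under ET-3 it passed with scaling to totals (0.18, adjusted p 0.0192).

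All 3 thioredoxin reductases, selenoproteins that keep thioredoxin reduced, rose under both ligands. Txnrd1, the cytosolic form, had the highest values of the family, 1232 and 1307 (DMSO), 2457 and 2330 (ET-3) and 2048 and 2038 (NT). Its log2 fold change came to 0.91 ± 0.05 for ET-3 and to 0.69 ± 0.05 for NT (adjusted p 1.08e-07 and 8.59e-07), just short of 2-fold in the first. The mitochondrial Txnrd2 rose by 0.55 and 0.56 and the testis-enriched Txnrd3 by 0.78 and 0.89 on the log2 scale, the latter from 139 and 113 to 211 and 221 (ET-3) and 214 and 252 (NT).

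Catalase and the superoxide dismutases, the enzymes that act on superoxide and hydrogen peroxide without thiols, showed different directions. Cat, the peroxisomal catalase, stood at 353 and 387 (DMSO), 747 and 757 (ET-3) and 668 and 674 (NT). It was upregulated under ET-3 (2.03-fold, adjusted p 1.61e-07) and rose 1.81-fold under NT (adjusted p 5.92e-07), and without the first DMSO library its log2 fold change under ET-3 was 0.96. The cytosolic Sod1 rose slightly under ET-3 (387 and 403 to 475 and 474, log2 fold change 0.26) and was at 428 and 395 (NT) (0.06, adjusted p 0.413, or 0.022 with scaling to totals). The mitochondrial Sod2 was at 469 and 493, 434 and 403, and 437 and 430, with 16.2% of its windows shared with other genes and log2 fold changes of -0.20 and -0.15 whose adjusted p of 0.0118 and 0.0461 became 0.105 and 0.596 with scaling to totals. The secreted Sod3 was near the limit of measurement, at 10 and 16 (DMSO), 6 and 1 (ET-3) and 4 and 10 (NT). Sod3 was downregulated under ET-3 (log2 fold change -1.87 ± 0.62, adjusted p 0.0234), which did not hold without the first DMSO library (adjusted p 0.132), the second DMSO library (0.243) or the second ET-3 library (0.21).

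Genes named as glutathione peroxidases numbered 5, none of them upregulated. Gpx7, a form of the endoplasmic reticulum, was at 173 and 176 (DMSO), 79 and 85 (ET-3) and 90 and 77 (NT). Its log2 fold change came to -1.08 ± 0.12 for ET-3 and to -1.06 ± 0.12 for NT (adjusted p 3.24e-05 and 3.99e-05), and -0.99 and -0.95 with scaling to totals, under 2-fold, as was the NT value without the second NT library (-0.95). Gpx8, its relative in the same compartment, did not share the direction: it stood at 301 and 281, 343 and 351, and 298 and 324, and rose under ET-3 by 0.25 on the log2 scale (adjusted p 0.00799, and 0.0702 without the second DMSO library or 0.0604 without the second ET-3 library). Under NT the log2 fold change of Gpx8 was 0.10 (adjusted p 0.248), and 0.21 with scaling to totals, which passed the test (adjusted p 0.0249). The secreted Gpx3 fell from 303 and 372 to 280 and 264 (ET-3) and 248 and 239 (NT), with log2 fold changes of -0.30 (adjusted p 0.0162, or 0.0577 with scaling to totals) and -0.46 (adjusted p 0.00162). Gpx1, the major cytosolic form, had values of 308 to 378 in all libraries and did not pass the test. Gpx4, which reduces lipid hydroperoxides in membranes, fell under NT (217 and 231 to 176 and 180, log2 fold change -0.33, adjusted p 0.00463) and stood at 218 and 204 (ET-3), with 29.8% of its windows shared. Its pseudogene Gpx4-ps2, which shares 76.5% of its windows with other genes, and Prdx2-ps1 had values of 8 to 18 and did not pass the test.

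Nfe2l2 itself, which encodes NRF2, hardly differed. Its values were 746 and 764 (DMSO), 763 and 734 (ET-3) and 707 and 637 (NT). For ET-3 the log2 fold change was -0.01 ± 0.06 (adjusted p 0.859) and for NT -0.17 ± 0.06 (adjusted p 0.0252, and 0.371 with scaling to totals or 0.225 without the second NT library). RNA levels do not report on the NRF2 protein, which was not measured in these libraries.

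**Figure D3:**
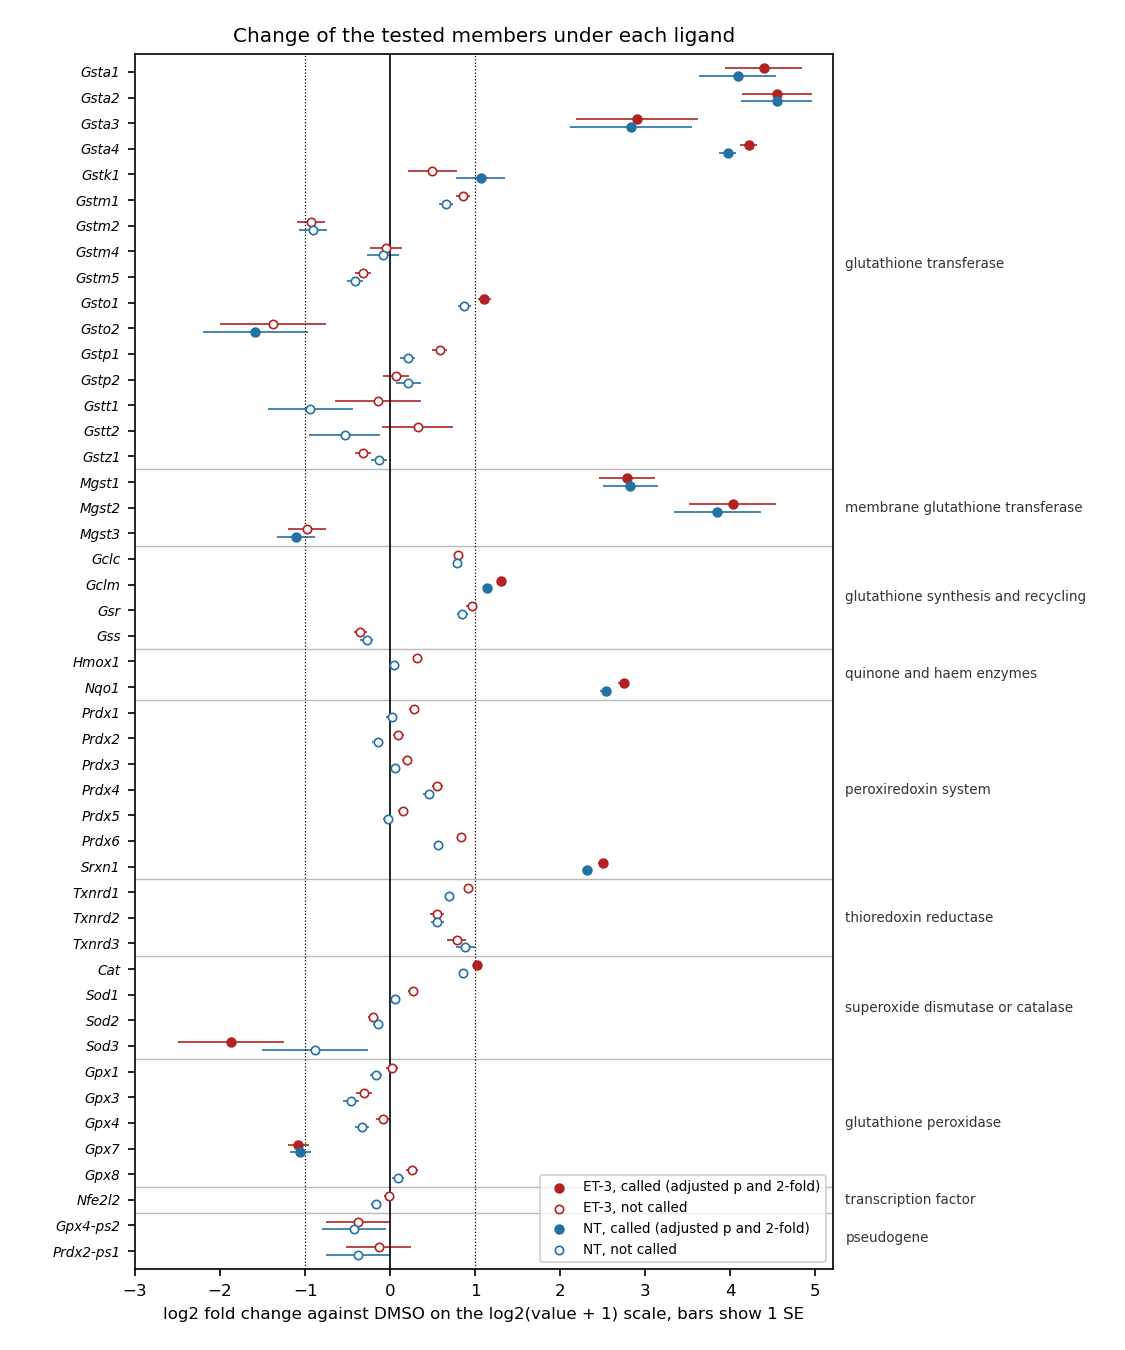
Log2 fold change against DMSO on the log2(value + 1) scale (horizontal axis, bars 1 SE) of the 47 tested members under ET-3 (red) and NT (blue), grouped by role. Filled points mark up- or downregulated members (11 and 2 under ET-3, 10 and 3 under NT), open points the others, and dotted lines the 2-fold threshold.

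Compared per kb of exonic length, the highest levels over all libraries were those of Hmox1, Gpx8, Prdx3, Txnrd1, Nqo1 and Gstm1. With DMSO they stood at 313, 278, 270, 179, 57.3 and 164 per kb, and with ET-3 at 389, 331, 309, 338, 387 and 296. Hmox1 at the top lay at the 99.2nd percentile of all genes by value per exonic base. It had 0.341 per base as a mean over the libraries, and the highest gene of the whole series had only 0.746. The order depends on the length used, since Txnrd1 stood at 350 per kb with DMSO when its longest transcript took the place of all annotated exons. Whether genes with such dense coverage were measured with the same gain as others was not tested.

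Between the ligands themselves the differences of the members were mostly small, and most of them lay lower under NT. The log2 fold change of NT against ET-3 was positive in 11 of the 47 and had a median of -0.16, where that of all tested genes was 0.03. At the adjusted p, 3 members were lower under NT, where the share of all tested genes was 2.05%, and 0 were higher, where it was 0.647%. The 3 were Prdx6 (-0.28 ± 0.04, adjusted p 0.0379), Hmox1 (-0.27 ± 0.05, adjusted p 0.0379) and Txnrd1 (-0.23 ± 0.05, adjusted p 0.0423). In each of them both NT libraries lay below both ET-3 libraries. The difference of Gstp1 was larger (-0.37 ± 0.09) and missed the threshold in limma (adjusted p 0.055), but passed with upper-quartile scaling (-0.37, adjusted p 0.0467). At an unadjusted p under 0.05, 19 members were lower and 0 higher under NT in limma, where the shares of all tested genes were 10.2% and 9.66%. With voom weights 9 members were lower and 0 higher at the adjusted p, where those shares were 3.63% and 1.27%. The call of all 3 was lost when any 1 of the 6 libraries was left out. For Nqo1, Srxn1, Gsta4, Gclm and Cat the log2 difference was -0.21, -0.19, -0.25, -0.16 and -0.16, with adjusted p from 0.0621 to 0.229, which does not show that the ligands acted alike.

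Other genes of the pathway were read from 7 lists written from general knowledge, also with earlier results known, and none of them contains a member. Counts in each list stand beside shares of all tested genes of 30.6% rising and 33.2% falling under ET-3, and 29.7% and 32.5% under NT. They are descriptions and support nothing about a list as a whole. Of 14 tested other NRF2 target genes, 10 rose and 3 fell under ET-3 and 7 rose and 3 fell under NT, with medians of 0.51 and 0.23. Cbr3, a carbonyl reductase, stood at 21 and 30 (DMSO), 272 and 250 (ET-3) and 229 and 245 (NT), and Aldh3a1, an aldehyde dehydrogenase, at 7 and 11, 91 and 101, and 96 and 116. Their log2 fold changes were 3.32 and 3.31 under ET-3 and 3.19 and 3.44 under NT. Blvrb, a biliverdin reductase, and Htatip2 were also upregulated under both (1.87 and 1.72 under ET-3, 1.72 and 1.71 under NT), whereas Akr1b8, Akr1b10 and Ephx1 were the 3 that fell.

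Of 10 tested NRF2 regulators, 3 rose and 2 fell under ET-3 and 2 rose and 4 fell under NT, with none changed 2-fold and medians of 0.07 and -0.06. Keap1, which targets NRF2 for degradation, rose from 300 and 285 to 467 and 468 (ET-3) and 441 and 461 (NT). Its log2 fold change was 0.68 and 0.62 (adjusted p 3.58e-06 and 6.8e-06). Bach1, the repressor that competes for the same elements, fell from 526 and 508 to 338 and 333 (ET-3) and 380 and 376 (NT), with log2 fold changes of -0.62 and -0.45 (adjusted p 4.12e-06 and 4.43e-05).

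Enzymes that supply NADPH, the reductant behind Gsr and the thioredoxin reductases, rose in 10 of 15 genes and fell in 3 under ET-3, and rose in 8 and fell in 4 under NT, with medians of 0.38 and 0.26. G6pdx, the entry enzyme of the pentose phosphate pathway, went from 436 and 471 to 1045 and 988 (ET-3) and 924 and 866 (NT), with log2 fold changes of 1.16 and 0.98. Tkt, a transketolase of the same pathway, went from 263 and 226 to 819 and 750 (ET-3) and 728 and 690 (NT) (1.68 and 1.54). The mitochondrial malic enzyme Me3 moved the other way, from 28 and 26 to 6 and 9 (ET-3) and 10 and 7 (NT) (-1.74 and -1.58).

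Genes for uptake of glutathione precursors, turnover and export were divided, with 6 of 14 rising and 5 falling under ET-3 and 6 each under NT, and medians of 0.06 and -0.05. Slc7a11, the cystine transporter that feeds glutathione synthesis, stood at 1467 and 1575 (ET-3) and 1518 and 1635 (NT). Its DMSO libraries stood apart from each other at 515 and 210, so the log2 fold changes of 2.21 ± 0.30 and 2.26 ± 0.30 carry a wide error for a gene at this level. Abcc4, an exporter, was at 79 and 93, 511 and 562, and 516 and 608 (2.63 and 2.69), and Cbs, an enzyme of cysteine synthesis at values of 1 to 11, rose by 1.65 and 1.79. Dpep1, a dipeptidase of glutathione breakdown, went from 352 and 288 to 6 and 4 (ET-3) and 6 and 10 (NT), with log2 fold changes of -5.75 and -5.19.

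Thioredoxins, glutaredoxins and methionine sulfoxide reductases had medians near 0 (0.01 and -0.03), with 5 of 15 rising and 4 falling under ET-3 and 2 and 5 under NT. Txnip, which binds and inhibits thioredoxin, fell from 135 and 180 to 15 and 17 (ET-3) and 10 and 24 (NT) (log2 fold change -3.21 and -3.24). Txn1 rose under ET-3 (322 and 370 to 472 and 443, log2 fold change 0.40, adjusted p 0.000965) and was at 369 and 345 (NT) (0.05, adjusted p 0.606). Glrx, a glutaredoxin, was upregulated under both, from 65 and 58 to 120 and 138 (ET-3) and 138 and 134 (NT) (1.06 and 1.13).

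Of 11 genes of selenoprotein synthesis, which serves the Txnrd and several Gpx proteins, 5 rose and 4 fell under ET-3 and 6 rose and 2 fell under NT. Their medians were 0.24 and 0.29. Lrp8, a receptor for the selenium carrier, went from 290 and 286 to 763 and 785 (ET-3) and 870 and 858 (NT) (log2 fold change 1.42 and 1.58). Sources of superoxide and hydrogen peroxide were mostly at low values, and 6 of 15 were tested, of which 4 rose and 2 fell under each ligand. The medians of those tested were 0.33 and 0.28. Cyba, a subunit of NADPH oxidases, went from 21 and 18 to 67 and 72 (ET-3) and 79 and 70 (NT), and the subunit Ncf1 from 47 and 31 to 4 and 2 (ET-3) and 2 in both NT libraries.

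**Figure D4:**
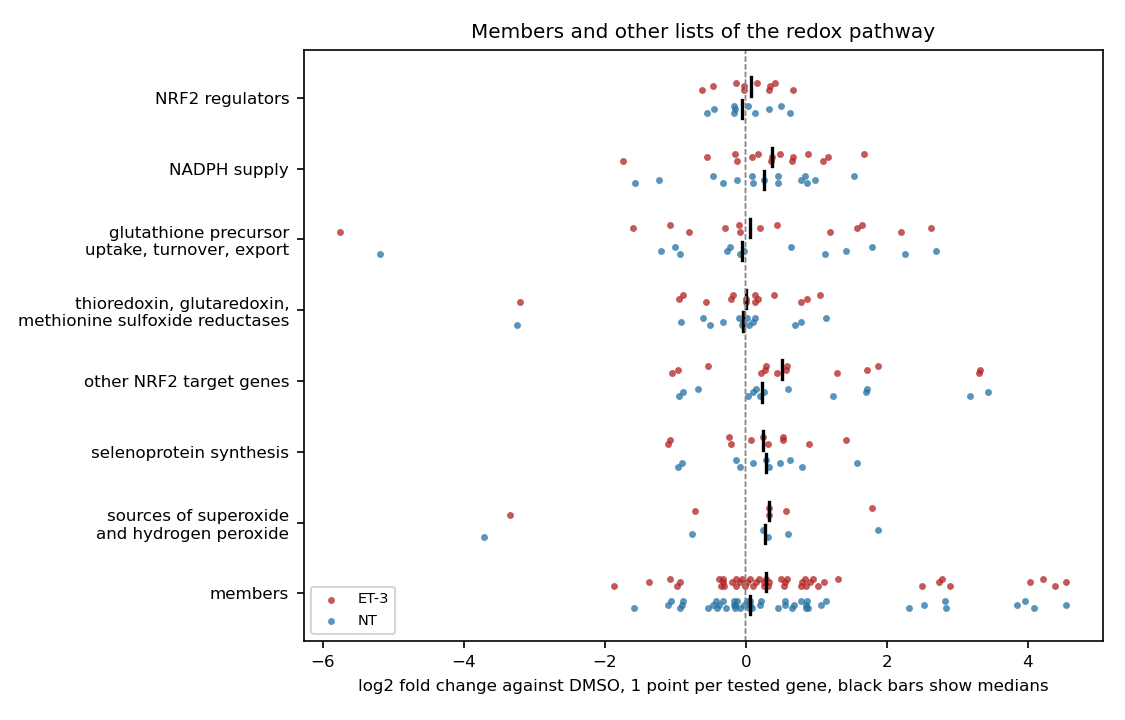
Log2 fold change against DMSO (horizontal axis) of every tested gene in 7 pathway lists and of the 47 tested members, with 1 point per gene, ET-3 in red, NT in blue, black bars for the median of each list and dashed lines for the medians of all tested genes. Under both ligands the medians of other NRF2 target genes (0.51 and 0.23) and NADPH supply (0.38 and 0.26) lie to the right of the dashed lines. So do those of selenoprotein synthesis (0.24 and 0.29), sources of superoxide and hydrogen peroxide (0.33 and 0.28) and the members (0.28 and 0.06). Every list holds genes on both sides.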

How the data were processed

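RNA-seq libraries of MuSCs treated with DMSO, ET-3 or NT were grouped by their labels. The submitters' processing notes name Trimmomatic 0.38, STAR 2.7.7a, featureCounts 1.6.5, DESeq2 1.30.0 and mm10, while the methods name other versions and kits. According to the methods, reads were not counted where they fell on more than 1 gene or had more than 1 alignment, and the use of strand in counting is not given in the sources used here. The deposited signal, 1 whole number per gene and library, is a read count that the authors scaled and rounded. Count tests were therefore not run. The factors, 0.781 to 1.19, were estimated here by likelihood from how often each small whole number occurs. Members and lists were chosen with earlier results of these data known. Genes whose mean value reached 5 were tested with limma 3.58.1 in R 4.3.3 (trend, pseudocount 1, all 6 libraries, no block) with Benjamini-Hochberg adjustment, and the fit was tested on simulated data. Fold changes on the log2(value + 1) scale understate the change of low genes. Named with values were members called under either ligand, the 6 highest per kb, Nfe2l2 and the 8 other enzymes listed by symbol, members differing between the ligands, and up to 4 genes per list called under both ligands with the largest change, plus Keap1, Bach1, Slc7a11, Txn1, Txnip and G6pdx; further members served to compare relatives. Exonic lengths, positions and 75-base windows came from GENCODE M21 (GRCm38), to which 18920 of 18943 genes were matched, and promoters from RefSeq. Alternatives covered scaling, pseudocount, filter, voom weights, a replicate block, 2-group fits, treated pairs averaged, and each library left out in turn. Tables and plots were made in Python 3.11.15 (numpy 2.4.6, pandas 2.3.3, matplotlib 3.10.9).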

Additional observations from a re-analysis of the deposited data

Results flagged for a closer look

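In 3 members the log2 fold change of NT minus that of ET-3 passed the limma test of the difference between the ligands: -0.278 in Prdx6, -0.272 in Hmox1 and -0.228 in Txnrd1. In each, both NT libraries lay below both ET-3 libraries, and 0 of the 3 kept an adjusted p of at most 0.05 without any 1 of the 6 libraries.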

How the results depend on the processing

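Each alternative was compared with 11 members upregulated and 2 downregulated under ET-3, 10 and 3 under NT, and 3 differing between the ligands. A mean value of at least 20 left 7 and 1 under ET-3, 5 up under NT and 7 between the ligands. No fold-change threshold gave 26 and 9 under ET-3 and 20 and 10 under NT. Scaling to totals gave 1 down under ET-3 and 0 down under NT (limma, where 1 member changed 2-fold at an unadjusted p under 0.05), a pseudocount of 5 gave 1 down under NT and 5 between the ligands, and each treated pair counted as 1 sample gave 1 down under either ligand. Between the ligands, voom weights gave 9, and 0 passed without the filter, with the replicate block, in the fit of the 2 groups alone or with treated pairs as 1 sample (17, 18, 21 and 2 lower under NT at an unadjusted p under 0.05 in limma). The cause of these changes was not tested. With 1 library left out in turn, the counts were 9 to 11 up and 1 to 3 down under ET-3, 8 to 10 up and 1 to 3 down under NT, and 0 in every case between the ligands, with 10 to 20 lower at an unadjusted p under 0.05. Without the first DMSO library the calls of Cat and Gsta3 were lost under ET-3, and without the second those of Gsta3 and Gstk1 under NT. No pairing by replicate number was visible, as the differences between first and second libraries correlated at -0.07 to -0.01 over genes between groups. This does not tell whether libraries of the same number shared a mouse or a batch. With the replicate block, 11 and 2 members were called under ET-3 and 10 and 3 under NT, and no call against DMSO of a named member changed. With treated pairs as 1 sample, 18 of 52 fold changes of named members lost their adjusted p, those of Mgst1 and Mgst2 among them, and no alternative reversed the direction of a called member. The counting error limits members with a mean value under 20. Among the tested ones these were Gsta1, Gsta2, Gsta3, Gstk1, Gsto2, Gstt1, Gstt2, Mgst2, Sod3 and both pseudogenes.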
